A study of Mus musculus with 6 samples.

Results

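The genes described here are those whose mean level was strongly reduced after 6 h of high potassium in mouse cortical neurons, with a mean at 2 h between those at 0 h and 6 h. They were chosen by the measured values: a mean expected count of at least 100 in the 0 h libraries, a mean level at 6 h of at most 0.33 times the 0 h mean, and a mean level at 2 h lying between the means at 6 h and 0 h. Symbols that start with Zfp, Zbtb, Kcn or Nsun were left out. Levels are in TPM, a length-normalized unit that sums to the same total in each library and is corrected for transcript length. The selection holds 528 of the 11512 genes that reached the count minimum, out of 43432 genes listed, and 506 of the 528 are annotated as protein coding. Since the fall itself chose these genes, the size of the fall and the order of the time points are given as a description and not as a finding.

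The neurons came from the cortex of wild-type C57BL/6 embryos of both sexes at E16.5 and were pooled and cultured for 7 days. All 3 groups (0 h, 2 h and 6 h, with 2 libraries each, called biological duplicates by the series) were silenced overnight with 1 μM tetrodotoxin, which blocks sodium channels, and 100 μM DL-AP5, which blocks NMDA receptors. KCl at 55 mM was then left on the cells for 2 h or 6 h, and the 0 h group received none. The culture is a bulk sample, so fewer cells of a type and less RNA per cell cannot be told apart.

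Depolarization by potassium opens voltage-gated calcium channels, and calcium signals to the nucleus start a program in which immediate-early transcription factors rise within minutes to hours and later effector genes follow. A transcript level falls when its synthesis slows or its decay speeds up, and the time taken depends on the half-life of the transcript, so the share of the final loss already present at an early time point describes the course of each gene.

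Library depth ran from 25959298 to 28573067 expected counts. The replicates of the 2 h group differed most, with an SD of the log2 difference between replicates across genes of 0.437 against 0.263 at 0 h and 0.218 at 6 h, and that difference went with the GC content of the genes (Spearman's rho = -0.743 across genes, which are not independent replicates). Where the course of a gene is given by its share alone, the shares by 2 h replicate 1 and replicate 2 are therefore added in brackets. As a check of the labels, 9 of 11 immediate-early and activity genes with the count minimum were called higher at 2 h and 9 at 6 h, and none was called lower against 0 h (2.09% of all genes with the count minimum were called higher at 2 h and 7.79% at 6 h). Summed levels of 9 neuronal markers lay between 5554 and 6164 TPM in every library. Those of 6 excitatory markers were 446.4 and 443.2 TPM at 0 h, 522 and 486.2 TPM at 2 h, and 593.3 and 606.2 TPM at 6 h. Those of 6 inhibitory markers were 324.5 and 319.1 TPM at 0 h, 421.1 and 422.6 TPM at 2 h, and 620.1 and 577.4 TPM at 6 h. Summed levels of 8 astrocyte markers were 839 and 909 TPM at 0 h, 791 and 825 TPM at 2 h, and 635 and 607 TPM at 6 h, and none of the 8 is in the selection or was called. Those of 6 progenitor markers were 274 and 302 TPM at 0 h, 328 and 393 TPM at 2 h, and 598 and 616 TPM at 6 h. Microglial markers summed to at most 6.48 TPM. Of all cell type markers examined, only the progenitor gene Hes5, an effector of Notch signalling, is among the 528 genes. The part of astrocyte or progenitor RNA in the results was not tested.

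Most of the transcripts of the typical gene were gone by 6 h. Mean TPM at 6 h was 25.4% of the 0 h mean in the median gene, with quartiles of 19.7% and 29.8%, and 13 genes were at or under 10%. At 2 h the median gene still stood at 66.5% of its 0 h level. By the Wald test of DESeq2, with an adjusted p of at most 0.05 and a log2 fold change under -1, 527 of the 528 genes were called lower at 6 h against 0 h, a contrast that chose them (10.2% of all 17277 genes tested and 11.7% of the genes with the count minimum were so called). In the comparison of 6 h with 2 h, 419 were called lower (8.02% of all genes tested and 8.47% of those with the count minimum). At 2 h against 0 h, 76 were called lower (5.94% and 7.08%). Only 16 genes were called lower in all 3 comparisons, 403 were called at 6 h against both earlier times but not at 2 h, and 60 were called against 0 h at both later times but not between 2 h and 6 h. Every 0 h library stood above every 2 h library, and every 2 h library above every 6 h library, in 439 of the 528 genes. Of all genes with the count minimum, 15.8% had that order, and the rule favours it.

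**Figure D1:**
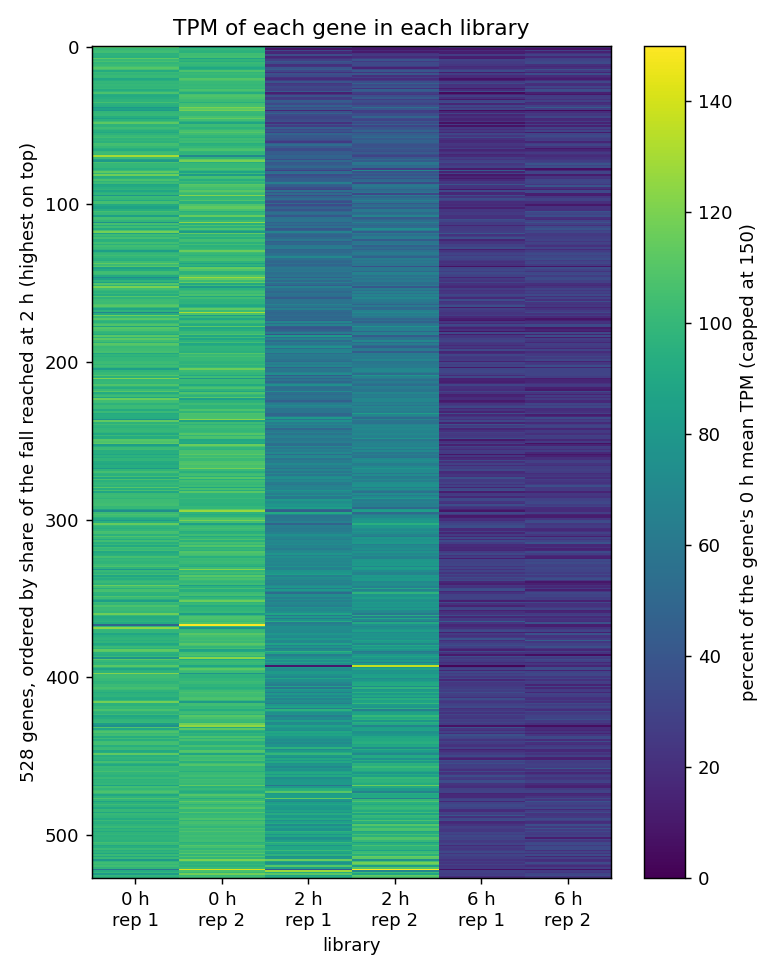
Each row is 1 of the 528 genes and each column a library; the color is the TPM in that library as a percent of the gene's 0 h mean, capped at 150, and rows are ordered by the share of the 6 h fall that was present at 2 h. The 6 h columns are dark from top to bottom, while the 2 h columns grade from dark at the top to near the 0 h level at the bottom.

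Scale matters for these fractions. In TPM, the median of all 11512 genes changed by -0.167 at 2 h and by -0.154 at 6 h on the log2 scale, while with the size factors of DESeq2 the same medians were 0.01 and 0.00. The median gene of the selection changed by -0.59 at 2 h and -1.98 at 6 h in TPM, and by -0.40 and -1.80 with the size factors. With counts divided by the size factors in place of TPM, the rule chose 366 genes, of which 344 are among the 528.

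The course of the fall was next expressed as the share reached at 2 h, that is, the difference between the 0 h and 2 h mean TPM as a percent of the difference between the 0 h and 6 h means. The median share was 44.2%, with quartiles of 29.1% and 61.5%. With the 2 h replicates taken alone, the median was 48.0% for replicate 1 and 43.3% for replicate 2. A loss at a constant rate would give 33.3% at 2 h, and 368 genes lay above that value and 160 at or under it. Both 2 h libraries lay above it in 292 genes, both at or under it in 97, and they fell on different sides of it in 139. The position of the median relative to that line depended on the scaling, since the median share was 33.1% with counts divided by size factors. On a scale of log2(TPM + 0.5) it was 29.6%. There 33.3% stands for a nearly constant fractional loss, so that value is not set against the same line. Shares were under 25% in 105 genes, from 25% to under 50% in 202, from 50% to under 75% in 153, and 75% or more in 68. The replicates differed by more than 25 percentage points of share in 110 genes, so the place of a single gene within this range is often uncertain.

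**Figure D2:**
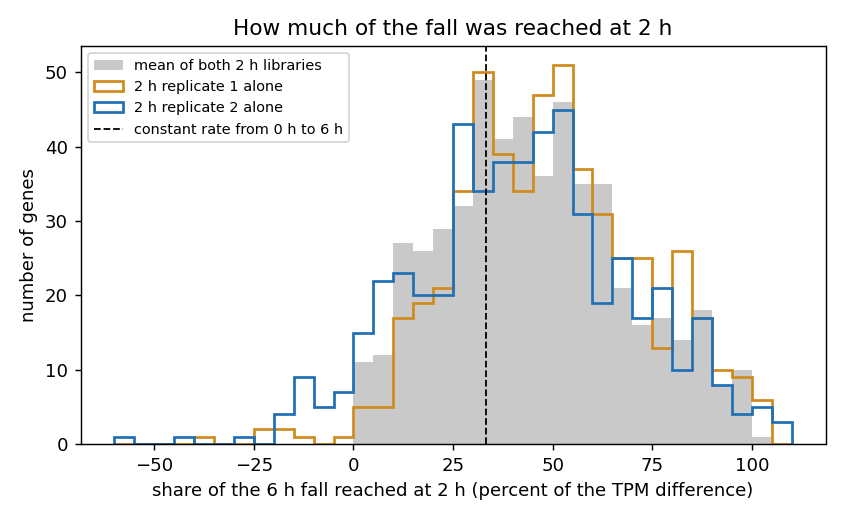
The horizontal axis is the share of the 6 h fall reached at 2 h, in percent of the TPM difference, and the vertical axis is the number of genes; grey bars use the mean of both 2 h libraries and the lines use each 2 h library alone. The distribution is broad and has 1 main body around its median of 44.2%, and the dashed line marks the 33.3% of a constant rate.

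GC content separated the courses seen by the replicates. Ordered by GC content, the genes form 4 bins of 132. In the bin with the lowest GC content (median 43.7%), the median share was 43.1% by 2 h replicate 1 and 52.7% by replicate 2. In the bin with the highest GC content (median 56.7%), it was 49.2% by replicate 1 and 30.9% by replicate 2. The order of these bins differed between the replicates, so no relation of the share with GC content is read from their mean.

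Genes at the fast end had gone through nearly all of their 6 h fall by 2 h. Among genes with at least 200 counts at 0 h, the highest share, 99.2%, was that of Senp8 (chr9:59734259-59750710 on GRCm38, minus strand), which encodes a protease that matures and removes the ubiquitin-like protein NEDD8. Its level was 6.13 and 6.07 TPM at 0 h, 0.49 and 0.54 TPM at 2 h, and 0.49 and 0.45 TPM at 6 h. The 2 h and 6 h libraries meet at 0.49 TPM and lie far under the 0 h libraries, and the log2 fold change was -3.38 ± 0.31 (SE, adjusted p = 1.3e-25, DESeq2) at 2 h and -3.50 ± 0.32 at 6 h. Zkscan16 (chr4:58943628-58958355), which encodes a zinc finger protein, went from 5.62 and 5.19 TPM to 0.95 and 0.60 TPM at 2 h and stood at 0.67 and 0.76 TPM at 6 h. Mettl21a, a protein lysine methyltransferase that acts on HSP70 chaperones, stood at 9.05 and 8.56 TPM, then at 2.86 and 1.56 TPM, and at 1.67 and 2.62 TPM at 6 h. The caveolar coat gene Cav1 fell from 14.5 and 14.0 TPM to 4.03 and 5.46 TPM at 2 h and was at 4.23 and 4.32 TPM at 6 h. Kctd18, with a share of 95.1% (85.4% and 104.8%), and Wnt7a, a secreted Wnt ligand with a share of 94.6%, completed the 6 fastest genes. The call of Cav1 at 2 h was lost without 0 h replicate 2 (log2 fold change -1.06, adjusted p = 0.0734, DESeq2). In Wnt7a the 0 h libraries had 15.5 and 15.9 TPM, the 2 h libraries 5.53 and 5.16 TPM and the 6 h libraries 4.21 and 5.29 TPM. In each of these 6 genes the 2 h and 6 h libraries overlap or meet, and none of the 6 was called lower at 6 h against 2 h.

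At the slow end, the 2 h libraries lay around the 0 h level. Rmnd1 (chr10:4401915-4432388, minus strand), needed for translation in mitochondria, had 28.1 and 30.1 TPM at 0 h, 26.7 and 31.4 TPM at 2 h, and 5.58 and 6.81 TPM at 6 h. The 2 h libraries enclose the 0 h libraries, and the log2 fold change was 0.23 ± 0.16 at 2 h and -1.93 ± 0.17 at 6 h (adjusted p = 1.6e-26, DESeq2). Bcas3, Nit1, Ptpru, Scaper and Hectd3 had the next lowest shares among genes with at least 200 counts, from 0.563% in Bcas3 (-15.7% and 16.9%) to 3.53% in Hectd3. Hectd3, a HECT-type ubiquitin ligase, had 28.1 and 28.0 TPM at 0 h, 23.8 and 31.0 TPM at 2 h, and 8.15 and 7.17 TPM at 6 h. Ptpru, a receptor tyrosine phosphatase, had 18.3 and 19.3 TPM at 0 h, 16.02 and 20.7 TPM at 2 h, and 4.82 and 5.10 TPM at 6 h. For Rmnd1, Nit1, Ptpru and Hectd3 replicate 2 at 2 h was above the 0 h mean and replicate 1 under it, and for Bcas3 and Scaper the order was the reverse. Nit1 had non-whole counts in all 6 libraries, which means that RSEM split reads between it and other genes.

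Several of the deepest falls were in genes of low level. Adamts2 (chr11:50602084-50807573), a protease that trims the ends of procollagens, had 3.36 and 4.87 TPM at 0 h, 0.67 and 1.09 TPM at 2 h and 0.21 and 0.15 TPM at 6 h, and its 6 h mean was 4.37% of the 0 h mean, against 8.01% in expected counts, since its effective length moved as well. Tert, the catalytic subunit of telomerase, had 2.2 and 2.21 TPM at 0 h, 1.13 and 1.11 TPM at 2 h and 0.17 and 0.22 TPM at 6 h (8.84% of 0 h). Gpr139, an orphan G protein-coupled receptor, went from 13.4 and 11.7 TPM to 1.63 and 3.41 TPM and then to 0.46 and 1.69 TPM, and its call at 2 h was lost without 0 h replicate 1 (adjusted p = 0.107, DESeq2). Zmat1 (8.02%), Rbm11 (8.19%) and Dus4l (8.41%) also ended under 10%, and the libraries of their 3 groups did not overlap. Ttc38 and Lrrc61 reached 6.59% and 6.44%, but their replicates at 0 h were far apart, at 1.83 and 4.39 TPM in Ttc38 and at 28.2 and 46.8 TPM in Lrrc61. In Lrrc61 the log2 fold change of counts at 6 h was -2.68 ± 0.21, a smaller fall than the TPM ratio gives, since the effective length assigned to the gene also moved.

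Of the 10 genes of highest level, 8 had a measured level in every library and were called at 6 h. Ndrg1 (chr15:66929318-66969640, minus strand), a stress-responsive gene of the NDRG family, had 144 and 149 TPM at 0 h, 84.6 and 104 TPM at 2 h, and 26.7 and 30.3 TPM at 6 h. Its groups did not overlap, and the log2 fold change was -0.51 ± 0.12 at 2 h and -2.25 ± 0.13 at 6 h (adjusted p = 3.1e-67, DESeq2). The metallothionein gene Mt2, whose product binds zinc and copper, had 230.0 and 243 TPM at 0 h, 201 and 214 TPM at 2 h and 42.3 and 54.5 TPM at 6 h. Sla, which encodes an adaptor related to Src, ran a like course, with 137 and 139 TPM, then 113 and 127 TPM, and then 31.3 and 25.9 TPM. Most of the loss in Mt2 and Sla thus came after 2 h, with shares of 15.4% and 16.4%. Plpp3, a lipid phosphate phosphatase, was at 104 and 108 TPM at 0 h, 71.7 and 75.6 TPM at 2 h and 34.4 and 29.99 TPM at 6 h, and Pnmal2, Dars, Mrps16 and Mrps17 ended between 27.3% and 32.3%. For Mrps17 the count-based log2 fold change at 6 h was -1.08 ± 0.15, again smaller than its TPM ratio of 29.7%, and it was -0.982 without 6 h replicate 1.

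The remaining 2 carry no reliable level. Rps27, a protein of the small ribosomal subunit, is listed at 7536 TPM in 0 h replicate 1 and at 0 TPM in the other 5 libraries, although reads were assigned to it throughout: the 0 h libraries had 154 and 71.6 expected counts, those at 2 h had 55.6 and 59.3, and those at 6 h had 42.7 and 30.4. Its effective length there was 1.28 bases and 0 elsewhere, so the TPM carries no level, and without 0 h replicate 1 the log2 fold change at 6 h was -0.63 (adjusted p = 0.463, DESeq2). Gm29216 had 1046 and 829 TPM at 0 h, 92.4 and 1282 TPM at 2 h and 19.7 and 148 TPM at 6 h, with non-whole counts in every library. It is the gene that was not called at 6 h (log2 fold change -3.40 ± 1.54, adjusted p = 0.0589, DESeq2). It was called without 2 h replicate 1 (adjusted p = 0.0114), without 2 h replicate 2 (adjusted p = 0.0116) and without 6 h replicate 2 (log2 fold change -5.49, adjusted p = 0.00954), but not without 6 h replicate 1 or either 0 h library.

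To describe functions, each gene was assigned by hand to 1 class from its known role, which left 86 genes without a class. Metabolic enzymes formed the largest class with 67 genes, followed by DNA repair, replication and telomeres with 44, membrane traffic, lysosome and secretory pathway with 44, RNA modification, processing and protein synthesis with 35, and primary cilium and centrosome with 34. Median levels at 6 h lay between 22.5% of 0 h for channels and transporters and 29.4% for receptors, ligands and secreted signals, a narrow range under the limit of the rule. The share at 2 h ranged more widely. It was highest for transcription and chromatin genes, at a median of 60.9% (quartiles 39.6% and 81.0%, 24 genes), and lowest for kinases, phosphatases and small GTPase signalling, at 36.6% (quartiles 16.1% and 45.7%, 21 genes). Transcription and chromatin had the highest median share also with size-factor counts (55.9%), on the log2 scale (43.0%), with TPM corrected for GC content (61%) and with either 2 h library alone (62.3% and 56.6%). The class at the lower end changed with these choices. The quartile ranges of all classes overlap.

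**Figure D3:**
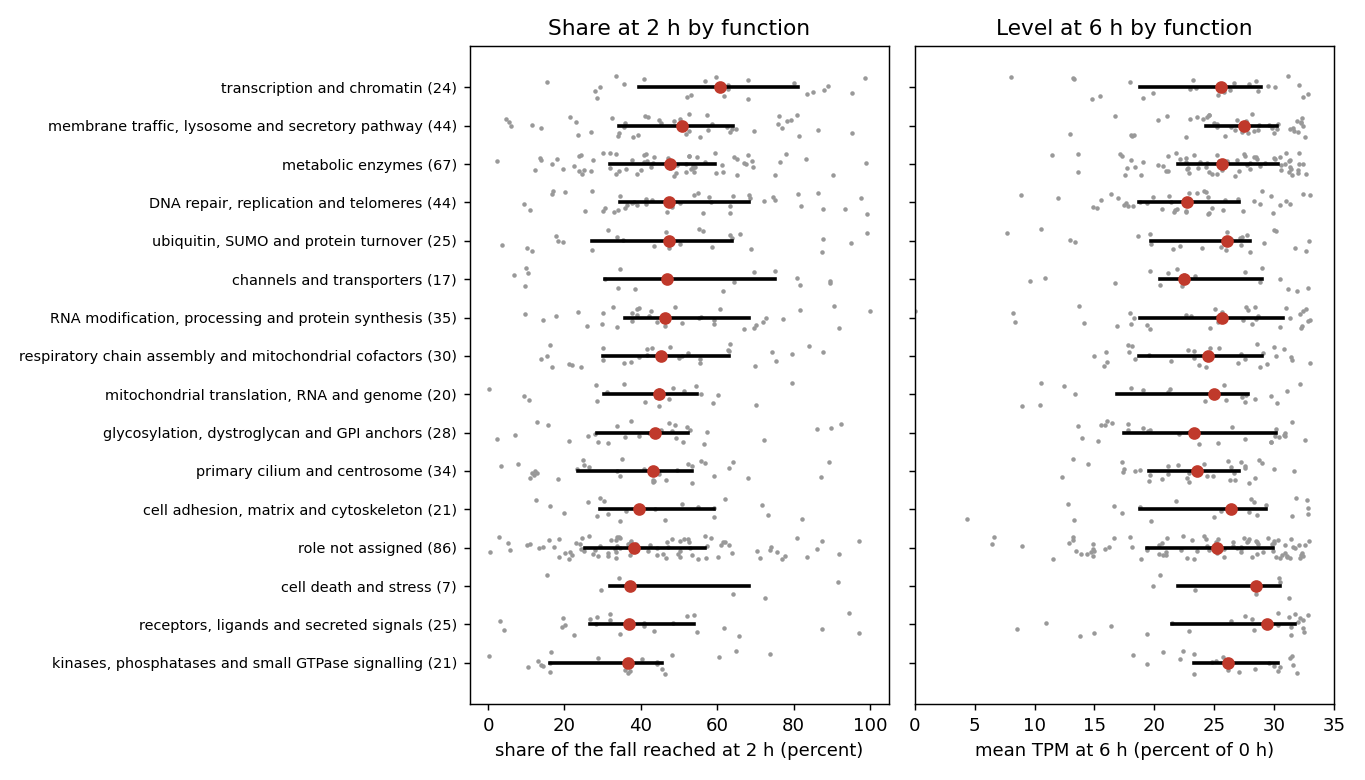
For each function class (number of genes in brackets), the left panel gives the share of the fall reached at 2 h and the right panel the mean TPM at 6 h as a percent of 0 h; grey points are genes, red points medians and black lines run from the lower to the upper quartile. Transcription and chromatin stands at the top of the left panel with a median of 60.9%, and the classes are close together on the right.

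DNA repair genes were counted in lists of their pathways, to be read beside the 4.59% of all genes with the count minimum that are in the selection and the 11.7% called lower and 7.79% called higher at 6 h. For a list of double-strand break and crosslink repair genes this was 13 of 47 (27.7%), for excision, mismatch and direct repair 8 of 50 (16%), and for DNA replication and the cell cycle checkpoint 4 of 50 (8%). At 6 h against 0 h, 18 of the 47, 14 of the 50 and 11 of the 50 were called lower and 2, 0 and 0 were called higher, with median log2 fold changes of -0.68, -0.47 and -0.70 against 0.00 for all genes with the count minimum.

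Of mismatch repair, Mlh3, which encodes a MutL homolog, had 13.01 and 13.4 TPM at 0 h, 4.91 and 3.68 TPM at 2 h and 2.16 and 2.53 TPM at 6 h. The groups did not overlap, its share was 82.0%, and it was called lower at 2 h (log2 fold change -1.44 ± 0.20, adjusted p = 1.4e-11, DESeq2).

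Of the 50 genes in the list of excision, mismatch and direct repair, 5 were called lower at 2 h, against 7.08% of all genes with the count minimum. Xpc, the damage sensor of nucleotide excision repair, had 10.4 and 11.8 TPM at 0 h, 2.92 and 4.65 TPM at 2 h and 2.26 and 2.99 TPM at 6 h. Gtf2h3, a subunit of TFIIH, which opens DNA in both repair and transcription, had 55.7 and 54.8 TPM at 0 h, 11.5 and 18.3 TPM at 2 h and 12.95 and 11.2 TPM at 6 h. Both were called lower at 2 h, by -1.38 ± 0.27 and -1.74 ± 0.19 on the log2 scale. Gtf2h4, another TFIIH subunit, had a share of 35.8% (27.7% and 44.0%) and was not called at 2 h (-0.35 on the log2 scale). Genes of base excision repair in the selection were Ogg1, which removes oxidised guanine and whose share was 9.27% (14.2% and 4.30%), and Parp2, a sensor of strand breaks, whose share was 50.2% (55.5% and 44.9%).

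Break repair genes spanned a wide range of courses. Rad50 (chr11:53649519-53707319, minus strand), of the complex that first binds broken ends, had 7.08 and 8.26 TPM at 0 h, 2.64 and 2.96 TPM at 2 h and 1.21 and 1.17 TPM at 6 h, and it was 1 of the 16 genes called lower in all 3 comparisons. Gen1, a resolvase of Holliday junctions, had 2.79 and 2.78 TPM, then 0.75 and 0.94 TPM and then 0.60 and 0.55 TPM, and its call at 2 h was lost without either 0 h library (adjusted p = 0.0718 and 0.0629, DESeq2). Atr, the kinase that signals stalled replication, and Brca2, which acts in homologous recombination, had shares of 63.3% (47.6% and 79.0%) and 56.3% (44.4% and 68.3%), and neither was called at 2 h (adjusted p = 0.091 and 0.093, DESeq2). The end-joining gene Xrcc5 had a share of 27.2% (28.4% and 25.9%), while for Xrcc4 the replicates were far apart (1.27% and 38.9%). Fanconi anaemia genes of the pattern Fanc plus a letter were counted as a family after the values were seen. Of 7 with the count minimum, 4 (57.1%, against 4.59% of all genes with the count minimum) are in the selection (Fance, Fancg, Fanci and Fancl). Their shares ran from 10.9% in Fancl to 33.0% in Fance (33.4% and 32.6%). The share of Fanci was 30.02% (34.99% and 25.1%), and that of Fancg was 46.5% by replicate 1 and 4.37% by replicate 2. Fancl, the ubiquitin ligase of the pathway, had 11.3 and 11.8 TPM at 0 h, 8.85 and 12.4 TPM at 2 h and 2.84 and 3.10 TPM at 6 h, but Fancl and Fanci overlap other expressed genes and had non-whole counts in every library. Abraxas1, of a BRCA1 complex, with a share of 99.3% (89.0% and 109.6%), lost its calls when 0 h replicate 1 was left out, with an adjusted p of 0.103 at 2 h and 0.0521 at 6 h (DESeq2).

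Of 75 genes of the primary cilium, 16 are in the selection (21.3%). At 6 h, 27 of the 75 (36%) were called lower and 1 (1.33%) higher, against 11.7% and 7.79% of all genes with the count minimum. A list of centriole and centrosome genes had 2 of 55 in the selection (3.64%), with 12 (21.8%) called lower and 2 (3.64%) higher. The primary cilium is a single antenna of the cell surface built by intraflagellar transport, in which motor-driven trains carry cargo along its microtubules. Of the trains, Ift81 (chr5:122550204-122614518, minus strand), which binds tubulin, had 36.4 and 42.4 TPM at 0 h, 27.7 and 22.1 TPM at 2 h and 5.80 and 7.88 TPM at 6 h. Ift122, Ift140 and Wdr19 belong to the complex of retrograde trains. Ift122 had 24.6 and 25.5 TPM at 0 h, 20.4 and 24.7 TPM at 2 h and 5.22 and 6.24 TPM at 6 h, and Ift140 had 20.6 and 20.1 TPM, then 17.4 and 19.95 TPM, and then 5.75 and 5.11 TPM. Most of the loss of these transcripts came after 2 h (shares of 12.7% and 11.5%), and the same held for Dync2li1 of the retrograde motor, with a share of 12.1% (10.6% and 13.6%). Wdr19 went deeper, from 10.2 and 10.8 TPM to 6.84 and 7.76 TPM and then to 1.39 TPM in both 6 h libraries.

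Genes of the BBSome, which moves membrane proteins out of the cilium, and of the transition zone, its gate, were present as well. Bbs7, of the BBSome, had 17.9 and 18.8 TPM at 0 h, 12.91 and 11 TPM at 2 h and 3.61 and 3.58 TPM at 6 h, and Ttc8, of the same complex, had a share of 64.1% (58.3% and 69.8%). Bbs12, a chaperonin-like protein needed to assemble the BBSome, had a share of 43.2% (37.0% and 49.4%). Of the transition zone, Cc2d2a, Rpgrip1l, Tmem107 and Tmem231 are among the genes in the selection. Tmem231 was the furthest down at 2 h, with 8.28 and 9.37 TPM at 0 h, 2.40 and 2.22 TPM at 2 h and 1.16 and 1.89 TPM at 6 h, and it was called lower at 2 h (log2 fold change -1.75 ± 0.28, adjusted p = 7.3e-09, DESeq2). None of the other selected cilium genes was called then. Of all 75 genes of the cilium list, 11 were called lower and 0 higher at 2 h. Of all genes with the count minimum, 7.08% were called lower and 2.09% higher. The rule leaves out genes whose 2 h mean lies under the 6 h mean, such as Bbs10. Tmem107 lost its call at 6 h without 0 h replicate 1 (adjusted p = 0.0593) or without 6 h replicate 1 (adjusted p = 0.0867, DESeq2).

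**Figure D4:**
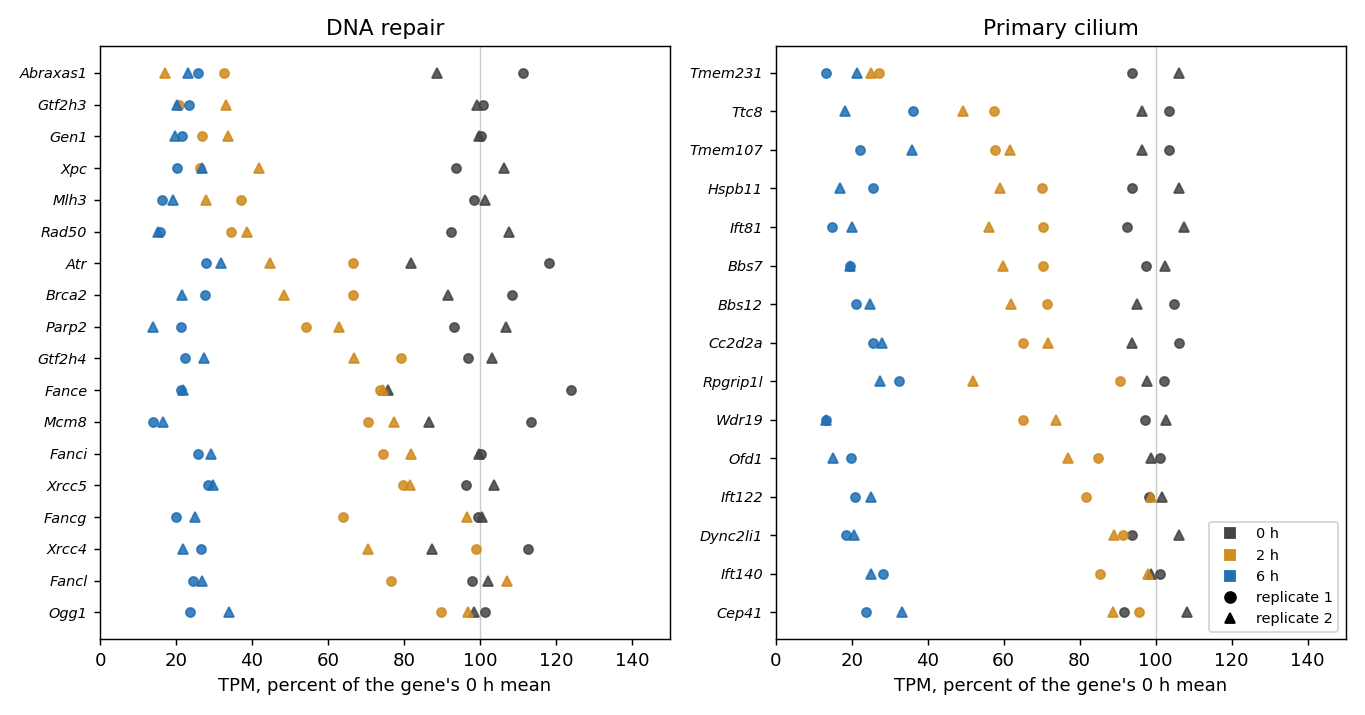
TPM of each gene in each library as a percent of its 0 h mean, for 18 of the 21 selected genes of both repair lists (left) and 15 of the 16 of the cilium list (right), the others not being reported here, ordered by the share of the fall reached at 2 h; color gives the time and shape the replicate. All 6 h points lie at 36.2% or lower, while the 2 h points move from beside the 6 h points at the top to beside the 0 h points at the bottom.

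Aminoacyl-tRNA synthetases charge tRNAs with their amino acids. Of 17 mitochondrial aminoacyl-tRNA synthetases (a family counted after the values were seen, as are the other families below), 4 (23.5%) are in the selection, with Ears2, Rars2 and Vars2 among them, and 9 (52.9%) were called lower at 6 h, with none called higher. Of 17 cytoplasmic synthetases 1, Dars, is in it (5.88%), and 2 (11.8%) were called lower and 1 higher. Ears2, which charges the mitochondrial tRNA for glutamate, had 6.09 and 8.05 TPM at 0 h, 4.26 and 4.07 TPM at 2 h and 1.84 and 2.44 TPM at 6 h. Of 72 proteins of the mitochondrial ribosome 5 (6.94%) are in the selection, and 11 (15.3%) were called lower and 0 higher, near the 4.59% and 11.7% of all genes with the count minimum, with a median log2 fold change of -0.31, against 0.19 for 73 proteins of the cytoplasmic ribosome. Taco1, which activates translation of a subunit of cytochrome oxidase, had 15.57 and 15 TPM, then 8.63 and 9.79 TPM, and then 2.55 and 2.98 TPM.

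The list of respiratory assembly, coenzyme Q and lipoate genes held 9 of 65 (13.8%), with 20 (30.8%) called lower and 2 (3.08%) higher at 6 h, against 4.59%, 11.7% and 7.79% of all genes with the count minimum. Coq9, a lipid-binding protein of coenzyme Q synthesis, kept 40.8 and 40.4 TPM at 0 h against 32.2 and 39.9 TPM at 2 h and fell to 8.02 and 6.94 TPM at 6 h. Fam136a, a mitochondrial protein outside that list, went down in even steps, with 65.2 and 66.3 TPM, then 38.0 and 36.8 TPM, and then 9.40 and 10.3 TPM. Bcs1l, which inserts the iron-sulfur protein into complex III, sits just inside the limit at 32.96% of 0 h.

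The list of tRNA modification and processing genes held 7 of 80 (8.75%), with 22 (27.5%) called lower and 4 (5%) higher at 6 h, where all genes with the count minimum gave 4.59%, 11.7% and 7.79%. Dus2 and Dus4l, tRNA dihydrouridine synthases, are 2 of the 4 genes of their family with the count minimum. Dus2 had 19.5 and 19.4 TPM at 0 h, 9.74 and 12.2 TPM at 2 h and 2.40 and 3.09 TPM at 6 h. The synthesis of diphthamide, a modified histidine of elongation factor 2, had 3 of 6 genes in the selection (Dph1, Dph5 and Dph6), and Eef2k, the kinase that inhibits the same factor, is also a member, at 44.3 and 53.3 TPM, then 34.7 and 30.7 TPM, and then 13.9 and 10.9 TPM. Dph1 shares its strand and reads with Ovca2. The Gemin genes of the SMN complex, which assembles spliceosomal particles, gave 3 of 6 (Gemin4, Gemin6 and Gemin8), with shares of 77.2% (81.4% and 73.1%), 72.7% (86.1% and 59.2%) and 55.3%, though Gemin4 had non-whole counts in every library. Gemin8 had 10.72 and 10.65 TPM at 0 h, 5.38 and 6.34 TPM at 2 h and 1.95 and 1.96 TPM at 6 h.

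Glycan synthesis genes of the secretory pathway followed. The list of N-glycan, dolichol and GPI-anchor synthesis held 7 of 55 (12.7%), with 17 (30.9%) called lower and 1 (1.82%) higher at 6 h, against 4.59%, 11.7% and 7.79% of all genes with the count minimum. Pigw, an acyltransferase of GPI-anchor synthesis, was called at 2 h, with 9.86 and 9.70 TPM, 3.32 and 2.04 TPM and 1.87 and 1.86 TPM, while Alg5, a glucosyltransferase for the lipid-linked sugar, had a share of 31.4% (38.6% and 24.3%). For Alg6, another glucosyltransferase of this kind, the course depended on the scale. It had 14.35 and 9.25 TPM at 0 h, 9.70 and 9.15 TPM at 2 h and 3.16 and 3.86 TPM at 6 h, but its expected counts of 253 and 200 at 0 h were followed by 267 and 199 at 2 h (log2 fold change 0.27 ± 0.28) and 38 and 36 at 6 h. Outside the list, the sialyltransferase gene St3gal1 (chr15:67102875-67176830, minus strand) had 39.6 and 36.2 TPM at 0 h, 8.56 and 9.69 TPM at 2 h and 6.95 and 6.52 TPM at 6 h, a share of 92.3%. Pomk, a kinase that modifies the sugar chain of dystroglycan, went down later and further, from 27.6 and 26.5 TPM to 18.8 and 19.5 TPM and to 3.68 TPM in both 6 h libraries.

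Genes by which neurons sense and respond formed smaller groups. Ntsr1 (chr2:180499976-180544980), a neurotensin receptor known as a marker of corticothalamic neurons, had 37.5 and 35.03 TPM at 0 h, 20.9 and 25.2 TPM at 2 h and 3.70 and 4.24 TPM at 6 h. Its level at 6 h was 10.95% of 0 h (log2 fold change -3.01 ± 0.16, adjusted p = 2.8e-73, DESeq2). Sez6l, a neuronal membrane protein, and Igfbp5, which binds insulin-like growth factors, had the most counts of their class and ended at 31.3% and 29.4% of 0 h. Cacna1i, a T-type calcium channel, had 10.51 and 10.1 TPM at 0 h, 7.42 and 8.48 TPM at 2 h and 3.44 and 3.32 TPM at 6 h. Tmem150c stayed near its 0 h level of 71.8 and 65.7 TPM at 2 h, with 68.6 and 59.3 TPM, and fell to 17.7 and 22.1 TPM at 6 h.

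Of 7 genes of the monocarboxylate transporter family, counted after the values were seen, 4 are in the selection (Slc16a6, Slc16a7, Slc16a9 and Slc16a14), or 57.1% against 4.59% of all genes with the count minimum. Slc16a6 had 23.5 and 28.8 TPM at 0 h, 4.99 and 5.01 TPM at 2 h and 1.93 and 3.10 TPM at 6 h, and it was called lower in all 3 comparisons, with non-whole counts in every library. Slc16a7 had a share of 30.6% (4.96% and 56.3%) and was not called at 2 h (-0.19 ± 0.28 on the log2 scale). Slc44a5, of the choline transporter-like family, had 37.2 and 36.2 TPM, then 15.9 and 13.2 TPM, and then 6.95 and 7.43 TPM. The initiator caspase gene Casp9 was down at 2 h already, with 17.5 and 20.3 TPM at 0 h, 6.06 and 7.64 TPM at 2 h and 6.48 and 5.05 TPM at 6 h, while Bid, a pro-apoptotic relative of BCL2, had 28.7 and 29.1 TPM, then 21.2 and 23.6 TPM, and then 6.62 and 6.92 TPM.

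Other lists were counted in the same way. Notch and Wnt signalling had 3 of 47 genes in the selection (6.38%), with 7 (14.9%) called lower and 8 (17%) higher at 6 h, against 4.59%, 11.7% and 7.79% of all genes with the count minimum. F-box, Kelch and cullin ubiquitin ligase genes had 5 of 86 (5.81%), with 7 (8.14%) lower and 8 (9.3%) higher. Other methyltransferase-like and RNA methylation genes had 3 of 48 (6.25%), with 10 (20.8%) lower and 3 (6.25%) higher. Peroxisome genes had 4 of 38 (10.53%), with 11 (28.9%) lower and 3 (7.89%) higher.

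The selected genes were compared with the other genes with the count minimum in properties that the rule did not use. Their transcripts had a median GC content of 50.3% against 49.6%, 9 exons against 9, a median length of 2850 against 3241 bases, and a median 3′ untranslated region of 988 against 1182 bases. The AU-rich word ATTTA occurred 1.15 times per kb of that region in the median gene, against 1.38 times in the others. Genes on chromosome X made up 1.70% of the selection and 3.68% of the others. A gene transcribed in the opposite direction from a start within 1000 bp, called a divergent partner, was found for 95 of the 528 genes (18%) and for 11.4% of the others. A gene on the opposite strand overlapped 124 of the 528 genes (23.5%) and 20.9% of the others, and since it is not stated whether strand was used in the counting, reads of such pairs may not be separated. Adamts2, Lrrc61, Rmnd1, Coq9, Ogg1, Dus2, Sla, Pigw, Bid, Pecr and Xrcc4 are among them. These figures describe the genes and no test was made of them.

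Of 81 divergent partners with the count minimum, 10 are themselves in the selection (12.3%, against 4.59% of all genes with the count minimum), which makes 5 pairs, and the median partner stood at 80.1% of its 0 h level at 6 h, against 89.9% for all genes with the count minimum. Partners were under their 0 h mean in 53 cases (65.4%, against 58.7% of all genes with the count minimum) and over it in 28. To show how close such starts lie, the stretch between the starts is given for the 5 pairs in which both genes are in the selection and for 1 pair in which the partner went the other way, all chosen after their values were seen. Sequences are those of RefSeq on GRCm38.p6, plus strand, 5′ to 3′. Capitals mark the bases between both starts, and lower case marks 15 bases of the first exon of each gene, the leftward gene on the left.
Orc3 and Rars2, chr4:34614928-34614971: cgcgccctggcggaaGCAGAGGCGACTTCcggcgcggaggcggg
Fam3a and Ikbkg, chrX:74393260-74393305: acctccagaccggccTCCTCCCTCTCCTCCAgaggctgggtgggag
Pecr and Tmem169, chr1:72284307-72284387: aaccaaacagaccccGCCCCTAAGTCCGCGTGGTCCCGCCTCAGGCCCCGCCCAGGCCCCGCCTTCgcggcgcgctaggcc
Gtf2e1 and Rabl3, chr16:37539775-37539908: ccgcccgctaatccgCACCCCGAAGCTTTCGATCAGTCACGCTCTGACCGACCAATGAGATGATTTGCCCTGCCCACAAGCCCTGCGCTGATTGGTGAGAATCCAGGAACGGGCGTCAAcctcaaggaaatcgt
Kdelc1 and Bivm, chr1:44118759-44118971: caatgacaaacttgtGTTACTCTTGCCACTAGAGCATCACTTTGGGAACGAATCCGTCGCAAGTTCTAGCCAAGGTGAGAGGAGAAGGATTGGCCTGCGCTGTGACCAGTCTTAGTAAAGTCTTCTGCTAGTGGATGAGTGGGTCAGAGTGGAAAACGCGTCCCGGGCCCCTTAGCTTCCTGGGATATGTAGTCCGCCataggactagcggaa
Gak and Tmem175, chr5:108629763-108629824: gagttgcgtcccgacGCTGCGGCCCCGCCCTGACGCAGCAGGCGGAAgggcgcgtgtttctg

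Only 14 bases separate the starts of Orc3, a subunit of the origin recognition complex, and Rars2, the mitochondrial arginyl-tRNA synthetase, and both genes had a similar share at 2 h. Orc3 had 52.4 and 48.0 TPM at 0 h, 39.98 and 31.98 TPM at 2 h and 17.9 and 13.6 TPM at 6 h (share 41.2%), and Rars2 had 30.8 and 33.2 TPM, then 21.97 and 18.9 TPM, and then 7.78 and 4.44 TPM (share 44.7%). The shares in the other pairs were further apart. Across 104 bases, Gtf2e1, a subunit of TFIIE, had a share of 61.7% (60.8% and 62.6%), and Rabl3, a small GTPase-like protein, had 6.35 and 6.76 TPM at 0 h, 2.27 and 1.64 TPM at 2 h and 1.74 and 1.91 TPM at 6 h, a share of 97.3%. Across 51 bases, Pecr, a peroxisomal enoyl-CoA reductase, had a share of 13.7% (17.5% and 9.83%) and Tmem169 one of 58.5% (59.3% and 57.7%). Across 16 bases, Fam3a had a share of 14.5% (28.2% and 0.770%) and Ikbkg, the regulatory subunit of the IκB kinase complex, one of 45.7% (41.5% and 49.8%). Kdelc1 and Bivm had shares of 57.3% (57.2% and 57.5%) and 75.6% (64.8% and 86.4%).

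In the last pair the genes parted. Tmem175, a potassium and proton channel of lysosomes, had 16.1 and 16.7 TPM at 0 h, 14.4 and 17.2 TPM at 2 h and 4.40 and 3.49 TPM at 6 h, with non-whole counts in every library, while Gak, a kinase of clathrin uncoating whose start lies 32 bases away, stood at 233% of its 0 h mean at 6 h. The partners R3hdm1 of Zranb3 (226%), Purg of Wrn (208%) and Mkln1 of the antisense RNA gene Mkln1os (202%) also stood at over 200% of 0 h in TPM. In counts the log2 fold change was 1.32 for Gak and 1.26 for Purg, but 0.80 for R3hdm1 and 0.53 for Mkln1, which is under the limit for a call. For 419 of the 528 genes a RefSeq promoter window was matched, which is under 80%, so the comparison of promoter motifs was void and is not used.

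**Figure D5:**
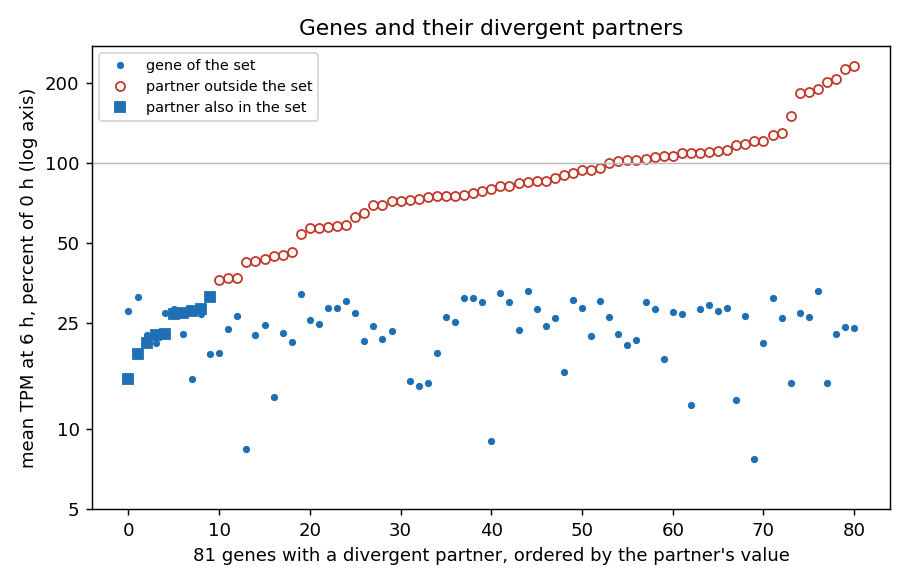
Mean TPM at 6 h as a percent of 0 h, on a log axis, for genes of the selection (small points) and their 81 divergent partners (circles outside the selection, squares within it), ordered by the partner's value. Rps27, listed at 0 at 6 h, has no point on the log axis. The genes lie at or under 33% by the rule, while the partners run from 15.5% to 233%.

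The limits of the rule cut through a continuous range. Bcs1l, Exosc1 and Timeless were the last genes inside the ratio limit, at 32.96%, 32.99% and 33.0% of 0 h, and Dnajc30, Npy2r and Tspyl3 were the nearest outside it, at 33.04% each. At the count limit, Inf2 and Thap3, with 101.5 mean counts, and Adra2c, with 102.5, were just inside, and Ky, Fn3k and Ankrd39, with 98.0, 96.0 and 95.5, were just outside. Ky ended at 5.04% of its 0 h level and Fn3k at 23%.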

How the data were processed

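The 6 RNA-seq libraries (3 groups of 2) were analysed. Per the labels and the study's methods, the authors selected poly(A) RNA, trimmed reads, mapped them to mm10 and estimated gene expression with RSEM (the processing notes name RSEM 1.3.0 and Bowtie2 2.2.9); the annotation release and strand setting are not given in the sources used here. RSEM divides reads that match several genes, which is why some deposited expected counts are fractional. TPM values deposited by the authors are corrected for effective length. Here, gene symbols and positions came from GENCODE M21 (GRCm38). Members were selected on mean TPM and mean expected count. Expected counts were rounded and tested with DESeq2 1.42.0 (R 4.3.3; Wald test, all 6 libraries, group as the only term, Benjamini-Hochberg adjustment); called means adjusted p up to 0.05 with a log2 fold change beyond 1 in either direction, the study's thresholds. edgeR 4.0.16 and other settings were alternatives.

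The members, gene lists and function classes were chosen with earlier results of these data known. Genes named in the text are the 10 highest in level, the 10 with the deepest falls, the 6 fastest and 6 slowest with at least 200 counts, the genes nearest the limits, members of the lists, and the 4 with most counts in each class; others are marked or belong to families and pairs counted after the values were seen. p-values measure the spread between 2 libraries per group, and counting precision covers counting error only. Some genes of the selection are not reported here.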

Additional observations from a re-analysis of the deposited data

How the results depend on the processing

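The number of selected genes was 250 with a ratio limit of 0.25, 1367 with a limit of 0.5 and 2326 with no minimum count. It stayed within 1.5 times 528 in the other settings, such as 366 with counts over size factors, 390 over TMM library sizes and 517 with TPM corrected for GC content, and it ran from 493 to 588 when 1 library was left out. The median share of the fall reached at 2 h was 33.05% with counts over size factors, 32.82% with TMM library sizes and 29.62% on the log2 scale, against 44.21% in TPM. It ran from 43.18% to 47.96% when 1 library was left out. TPM carries the shift of all genes described above. For the same falling means, the log2 scale gives a smaller share than TPM by its form. Counts of genes called lower changed by less than 1.5 times in every alternative: from 53 to 97 at 2 h, from 519 to 528 at 6 h against 0 h, and from 389 to 439 at 6 h against 2 h. With the replicate block they were 77, 528 and 417. Deviations of the libraries from the group means, taken by replicate number, correlated by 0.25 between 0 h and 2 h, -0.0141 between 0 h and 6 h and 0.145 between 2 h and 6 h. After correction for GC content these values were 0.0683, -0.0718 and 0.0334. They cannot decide whether the replicate numbers pair the libraries, since correlations across genes do not show how the cultures were made. No named gene reversed its direction after a call. Among 156 named genes, leaving out 1 library could end a call only where it was made with all libraries. At 2 h only 76 of the 528 genes were called, so most named genes had no 2 h call to lose. Bola3 and Fbll1 lost the 6 h call beside the genes named above. Their log2 fold changes were then -1.08 (without 0 h replicate 1) and -1.24 (without 6 h replicate 1). Dus4l and Dph1 lost the 2 h call on leaving out either 0 h library or 2 h replicate 2. Abraxas1, Gen1, Gpr139 and Cav1 also lost it. With 2 libraries per group the order of single genes by share is uncertain, most of all for genes of low count.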

Other observations

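Some genes reached the same limit at 6 h by another course and were therefore outside the selection. All genes in this part were picked after their values were seen. In 21 of them the 2 h mean was above the 0 h mean. Cacna1d, an L-type calcium channel, had 12.57 and 11.73 TPM at 0 h, 15.36 and 16.39 TPM at 2 h, and 3 and 3.08 TPM at 6 h, and its log2 fold change was 0.57 ± 0.12 (adjusted p = 1.53e-05, DESeq2) at 2 h and -1.80 ± 0.13 (adjusted p = 2.07e-43) at 6 h, although it had non-whole counts in every library. Itpr1, a calcium release channel of the endoplasmic reticulum, stood at 110.0% of 0 h at 2 h and at 29.8% at 6 h. Bbs2, of the BBSome like the selected Bbs7 and Ttc8, stood at 119% and then at 32.4%.

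In 32 genes the 2 h mean was under the 6 h mean. Arrdc3, an arrestin-domain protein, had 136 and 139 TPM at 0 h, 28.0 and 29.4 TPM at 2 h, and 39.1 and 38.7 TPM at 6 h. The 6 h libraries lay above the 2 h libraries, but the difference was not called (log2 fold change 0.39 ± 0.20, adjusted p = 0.0929, DESeq2). Dclk3, a doublecortin-like kinase, Cfap97 and Bbs10, a chaperonin-like protein needed to assemble the BBSome, stood at 22.3%, 18.9% and 20.5% of 0 h at 2 h and at 29.4%, 24.7% and 31.9% at 6 h. A further 24 genes met every condition but carried one of the symbol prefixes that were left out. Among them, Zfp663 had 2.95 and 2.9 TPM at 0 h, 1.04 and 1.26 TPM at 2 h and 0.12 TPM in both 6 h libraries.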
